A study of Homo sapiens with 2 samples.

Results

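A circular RNA (circRNA) forms when a downstream splice donor is joined to an upstream acceptor, so that one or more exons close into a ring with no free end. Such rings resist RNase R, an exonuclease that degrades linear RNA, and they are detected by reads that cross the back-splice junction. circBase is a public catalogue that gives known human circRNAs an identifier, and a single host gene can give several circRNAs that differ in which exon edges are joined. The circRNAs described here are those for which the deposited table gives no circBase identifier, called uncatalogued below. An empty identifier says only that the table names none.

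The rule took every row whose identifier field was empty after blanks were trimmed, and it found 362 of 1485 circRNAs (24.4%). The rule used no measured value. They carried 1885 reads in the HD-SB library and 7 in the control, and 359 of them (99.2%) were listed in HD-SB only, against 97.8% of all circRNAs in the table. The table covers SW620 cells, an established line from a lymph node metastasis of colorectal cancer, in 2 libraries. The group labelled HD-SB was given the herb pair Hedyotis diffusa and Scutellaria barbata (spelled Sculellaria in the labels) at 1 mg/mL for 24 h, and the group labelled Control has no dose or vehicle in its labels. RNA of both was depleted of ribosomal RNA and digested with RNase R. The HD-SB library held 11570 back-splice reads on 1475 circRNAs and the control 91 reads on 32. With 1 library per group there is no replicate error and no test between groups. Printed intervals are exact Clopper-Pearson intervals for shares and exact Poisson intervals for reads, at 95%, and cover counting error only. For the ratio of shares printed below, the Clopper-Pearson interval was conditional on the sum of the reads in both libraries. Of the fixed markers of colon epithelium, 3 of 10 had a circRNA (EPCAM, VIL1 and EPHB2) and CDH1, CDX2, KRT8, KRT18, KRT20, LGR5 and CDH17 had none, while 0 of 15 markers of fibroblasts, leukocytes and endothelium had one. A host without a listed circRNA may still be expressed as linear RNA.

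Positions are those of the table, whose build was not established, as only GRCh38 was at hand for comparison. GENCODE 29, on GRCh38, holds the single host name of 275 uncatalogued circRNAs, and 220 of these (80.0%) fell partly or wholly outside that gene there. Exons, introns and UTRs were not assigned and no sequence was read. Host names in the table were of 4 kinds. Most uncatalogued circRNAs, 293 (80.9%), had 1 gene name, 48 (13.3%) had several names, 17 (4.70%) had only names of small RNAs such as Y_RNA, snoU13, U3 or Vault, and 4 (1.10%) had n/a in place of a host. Among the 1123 circRNAs with an identifier, 1076 (95.8%) had 1 gene name, 41 (3.65%) several, 5 (0.445%) small-RNA names only and 1 had n/a.

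Uncatalogued circRNAs were more frequent among circRNAs of few reads. They were 69 of the 214 circRNAs with 2 HD-SB reads (32.2%), 81 of 259 with 3 reads (31.3%) and 63 of 218 with 4 reads (28.9%). They were 124 of 533 with 5 to 9 reads (23.3%), 17 of 173 with 10 to 19 (9.83%) and 6 of 78 with 20 or more (7.69%). These shares describe 1 library and were not tested. The median uncatalogued circRNA had 4 HD-SB reads (quartiles 3 and 6, highest 127), against 5 (quartiles 3 and 8, highest 373) for circRNAs with an identifier. In all, uncatalogued circRNAs carried 16.3% of HD-SB reads (15.6 to 17.0). Those with 1 gene name carried 1443 reads, those with several names 202, those with small-RNA names only 226 and those with n/a 14.

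**Figure D1:**
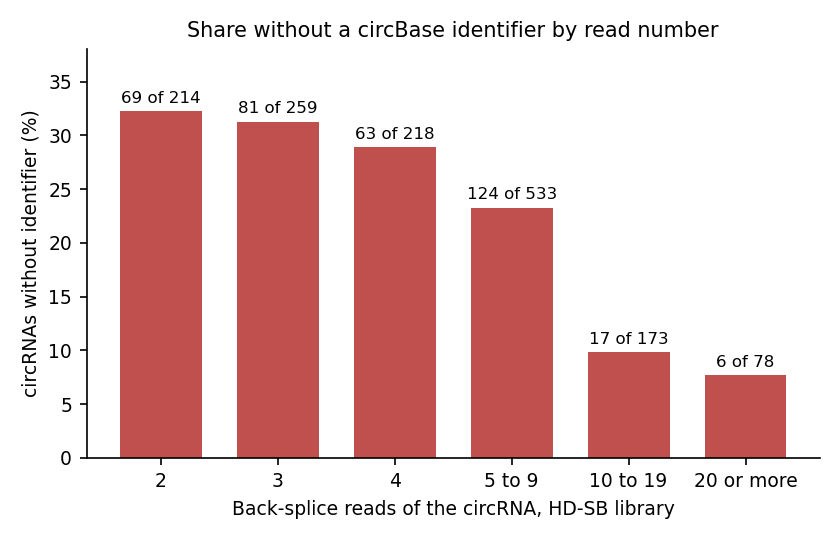
Bars give the percentage of HD-SB circRNAs without a circBase identifier (y axis) in bins of back-splice reads (x axis), with the counts above each bar. The share is 32.2% at 2 reads and 7.69% at 20 reads or more.

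The most-read uncatalogued circRNA carried the small-RNA names snoU13 and Y_RNA and no gene (chromosome 15, 91911481 to 91911831, span 351 bp). It had 127 HD-SB reads (106 to 151) or 10977 counts per 1000000 back-splice reads (CPM), had rank 5 among all circRNAs of that library, held 6.74% of all uncatalogued reads, and was not listed in the control. It was the single uncatalogued circRNA among the 20 most-read of the HD-SB library. The next was an LRP5 circRNA with 29 reads (19.4 to 41.6), whose interval lay below that of the chromosome 15 locus. LRP5 encodes a Wnt co-receptor, and this circRNA lay on chromosome 11 from 68153784 to 68157520.

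Below it came hosts of several functions, all listed in HD-SB and not in the control, as were 97.8% of all circRNAs in the table. With 91 control reads, absence there does not set these hosts apart. DHX37, an RNA helicase of ribosome assembly, had 27 reads or 2334 CPM (chromosome 12, 125436944 to 125438757). PRPF6, a component of the spliceosomal tri-snRNP, had 25 reads or 2161 CPM (chromosome 20, 62654110 to 62657411). The locus GS1-124K5.12 had 23 reads (chromosome 7, 66038372 to 66041916). FOSL1, which encodes the AP-1 subunit FRA-1, had 20 reads (chromosome 11, 65661485 to 65664477). The intervals from LRP5 to FOSL1 overlapped, so their order was not resolved at this depth.

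CEP128, a centriole protein, and SLC12A7, a potassium-chloride cotransporter, had 19 reads each (chromosome 14, 81362062 to 81372425, and chromosome 5, 1065398 to 1073916). FGD3, an exchange factor for the GTPase CDC42, and the locus RP4-694B14.5 had 15 each, and OSBPL2, an oxysterol-binding protein relative, had 14. TYW1B, named for a tRNA modification enzyme, had 12 reads on a span of 291 bp (chromosome 7, 72277659 to 72277949). As TYW1B has a close copy, TYW1, its host is uncertain. INO80, the ATPase of a chromatin remodelling complex, had 11 reads on 753 bp (chromosome 15, 41387799 to 41388551). DHX37, PRPF6, FOSL1, FGD3 and INO80 had no circRNA with an identifier, and their uncatalogued circRNA was the host's single circRNA in the table.

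**Figure D2:**
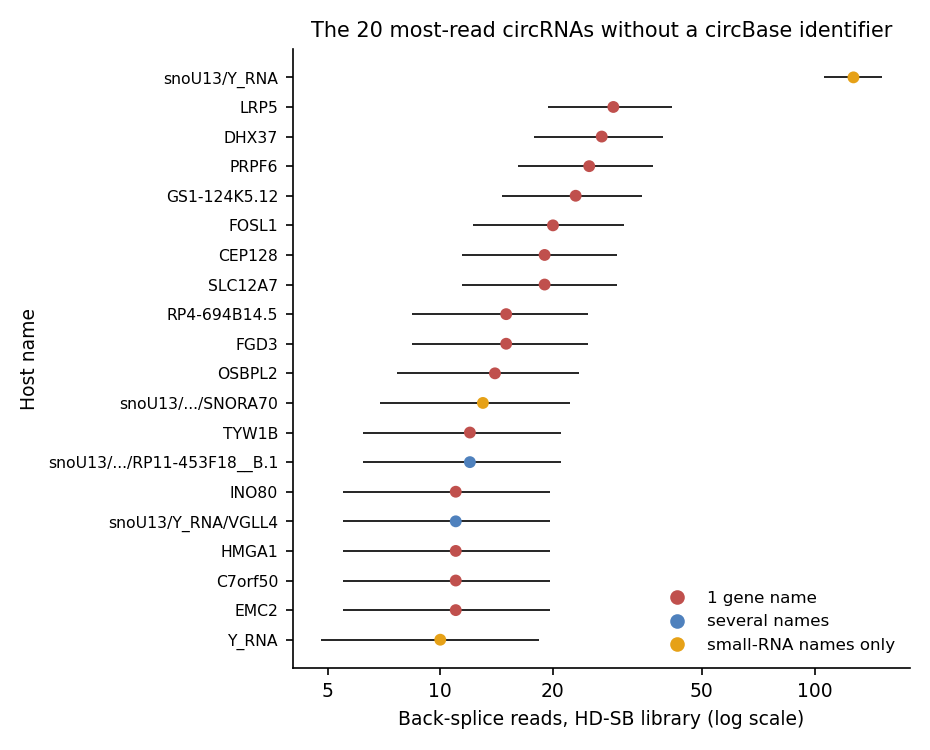
Points give back-splice reads in the HD-SB library (x axis, log scale) of the 20 most-read uncatalogued circRNAs, by host name (y axis), and lines the exact 95% Poisson interval, with colour for the kind of name. The chromosome 15 locus with 127 reads stands apart, and the intervals of the others overlap those of their neighbours.

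Span, the end minus the start plus 1 with introns included, had a median of 4074 bp over the 362 uncatalogued circRNAs, from 201 to 186055 bp. Circles with an identifier had a median of 4169 bp, from 215 to 157063 bp. By class the medians were 4063 bp for 1 gene name, 5398 bp for several names, 3869 bp for small-RNA names only and 36202 bp for the 4 with n/a. Spans of at least 10000 bp made up 109 (30.1%) of uncatalogued and 324 (28.9%) of catalogued circRNAs, and spans under 1000 bp 62 (17.1%) and 211 (18.8%). Long uncatalogued circles held 26.5% of uncatalogued reads (24.5 to 28.6), and the long catalogued ones 23.9% of catalogued reads (23.0 to 24.7). Short ones held 22.8% (20.9 to 24.8) and 29.2% (28.3 to 30.1). Of the 430 reads of the short uncatalogued circRNAs, 127 were those of the chromosome 15 locus.

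The shortest uncatalogued circRNAs with 1 gene name were those of GIPC1, a PDZ-domain scaffold (201 bp, 2 reads), NES, the intermediate filament protein nestin (226 bp, 3 reads), and TEAD1, a transcription factor of the Hippo pathway (256 bp, 9 reads). The longest were those of VTI1A, a SNARE of vesicle fusion (141912 bp, 7 reads), ST5 (120468 bp, 2 reads) and SIPA1L1, which carries a GTPase-activating domain for Rap (115423 bp, 3 reads). Among circRNAs with several names, the shortest carried AKAP12, a kinase-anchoring scaffold (339 bp), PLOD1, a lysyl hydroxylase (426 bp), and DOPEY2 (614 bp), with 3 reads each. The longest carried VTI1A (141923 bp, 7 reads), PCCA, a subunit of propionyl-CoA carboxylase (62537 bp, 5 reads), and LARGE, a glycosyltransferase (56364 bp, 6 reads).

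**Figure D3:**
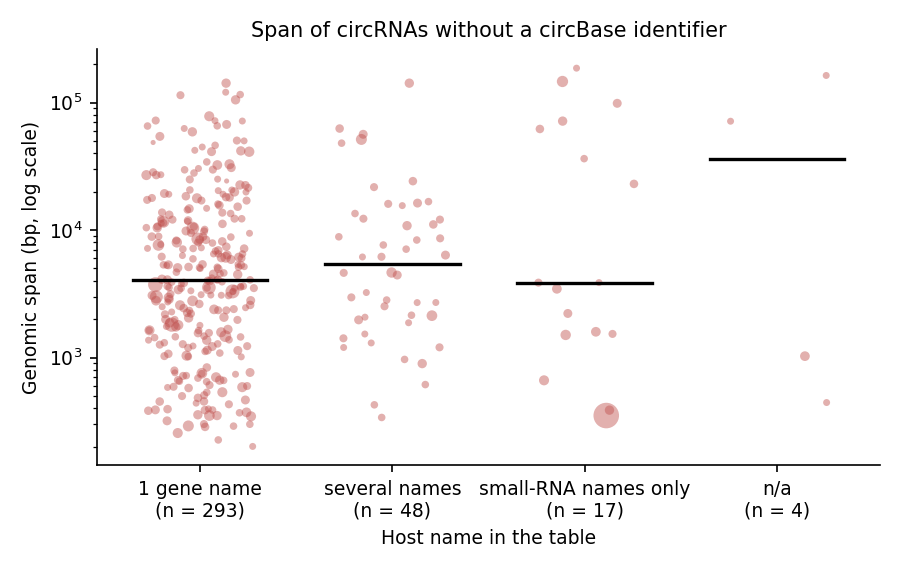
Each point is an uncatalogued circRNA, with its genomic span in bp (y axis, log scale), by kind of host name (x axis), and point area grows with its HD-SB reads. Black lines are medians, 4063, 5398, 3869 and 36202 bp from left to right, and the largest point is the 351 bp locus with 127 reads.

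Names of small RNAs, alone or beside a gene, stood on 59 uncatalogued circRNAs (16.3%) and on 23 with an identifier (2.05%). This contrast is a count over 1 table and was not tested. Of the 59, 56 carried Y_RNA and 53 snoU13, and 32 distinct small-RNA names occurred. A Y RNA is a short noncoding RNA bound by the Ro60 protein, and snoU13 and U3 are small nucleolar RNAs that act in ribosomal RNA processing. The names did not mark single positions. On chromosome 1, 8 uncatalogued circRNAs with small-RNA names lay from 12009964 to 214139627, a distance of 202 Mb, and all 8 carried both Y_RNA and snoU13. Their number of small-RNA names ran from 4 to 13, and the circRNA with 13, picked with its names known, spanned from 152221371 to 152225986. On chromosome 3, 4 circRNAs over 160 Mb all carried both names. Whether a small-RNA gene lies inside any of these circles was not tested.

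After the chromosome 15 locus, the circRNAs with small-RNA names only had far fewer reads. They were led by 13 reads on chromosome 1 (16811318 to 16957604, span 146287 bp), 10 on chromosome 16 (3031379 to 3032883), 9 on chromosome 16 (66632081 to 66632743), and 8 each on chromosome 1 (159987401 to 159990861) and chromosome 11 (126051390 to 126052982). Their median was 6 reads with the locus included. The 4 with n/a were on chromosome 19 (1241660 to 1242685, 8 reads) and, with 2 reads each, on chromosome 1 (1599766 to 1671143), chromosome 21 (9826552 to 9826995) and chromosome Y (13688616 to 13851691).

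Of the 48 uncatalogued circRNAs with several names, 39 joined small-RNA names to 1 gene and 9 held 2 or more genes. VGLL4, a cofactor of TEAD transcription factors, had 11 reads (chromosome 3, 11641366 to 11643496) and TBC1D22A 10 (chromosome 22, 47370186 to 47374830). FNDC3B, VTI1A and the pair VAMP2 (a vesicle SNARE) and RP11-599B13.6 had 7 each. The 9 with 2 or more genes held 38 reads in all. At least 1 gene of 17 of the 48 (35.4%) also hosted a circRNA with an identifier.

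On chromosome X, 6 uncatalogued circRNAs with 35 HD-SB reads, and 3 with an identifier and 34 reads, lay between 130829872 and 130928494. The uncatalogued circRNA from 130877124 to 130928494 had 12 reads and shared its end with hsa_circ_0001944 (130883334 to 130928494, 27 reads), the most-read circle there. Another from 130877124 to 130883486 had 6 reads, and 1 from 130829872 to 130928494 had 6 reads. The uncatalogued circRNA from 130883334 to 130890737 had 5 reads and the start of hsa_circ_0001944. Those from 130902577 and from 130911651, both to 130919286, had 3 reads each. All but the circle of 12 reads were picked with their values known. The host name was RP11-453F18__B.1 on 5 of the 6, alone or with small-RNA names, and the sixth carried small-RNA names only.

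Hosts were then compared by whether they also gave a circRNA with an identifier. Among the 293 uncatalogued circRNAs with 1 gene name, 76 (25.9%) had such a host and 217 (74.1%) did not. Catalogued circRNAs with several names were left out of this match. The 217 therefore include SDHAF2, named with a second host on hsa_circ_0000311. With circRNAs of at least 5 HD-SB reads on both sides, the percentage with such a host was 15.0%. By host name, without the minimum of 5 reads, 64 of 268 hosts (23.9%) also gave a catalogued circRNA. They are 7.37% of the 868 hosts of catalogued circRNAs with 1 gene name. For comparison, 356 of 1076 catalogued circRNAs (33.1%) had a host with another catalogued circRNA. Both groups of uncatalogued circRNAs had a median of 4 HD-SB reads, with quartiles of 3 and 6. The median span was 6954 bp where the host also had a catalogued circRNA and 3540 bp where it did not.

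Gene length in GENCODE 29 had a median of 51966 bp over 189 matched hosts of uncatalogued circRNAs alone (92.6% of 204). It was 83153 bp over 774 matched hosts of catalogued circRNAs alone, and 109656 bp over 61 hosts of both. GC content of the longest transcript had a median of 50.5%, 47.2% and 48.9% in that order, with quartiles of 42.8% and 58.0%, 41.9% and 54.4%, and 42.8% and 56.8%, which overlap widely. By RefSeq gene type, 185 of the 204 (90.7%) were protein-coding, 5 transcribed pseudogenes, 4 long noncoding RNAs and 10 not matched. Of the 804 hosts of catalogued circRNAs alone, 791 (98.4%) were protein-coding. No difference in host properties was tested.

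Within a shared host, the uncatalogued circRNA had fewer HD-SB reads than the host's most-read catalogued one in 48 of 76 cases, as many in 4 and more in 24. This count takes rows with 1 gene name on both sides. The 48 include the 2 circRNAs listed in the control only, those of HDAC4 and MPP6. A host with several catalogued circRNAs entered by its highest alone, which favours fewer, and catalogued circRNAs were not compared in this way. At GS1-124K5.12 the uncatalogued circRNA had 23 reads and the catalogued hsa_circ_0007417 had 8. Their starts were the same base and their ends lay 3 bases apart, and whether they are separate circles was not tested. At CEP128 the counts were 19 and 3 (hsa_circ_0032826), at RP4-694B14.5 15 and 2, and at OSBPL2 14 and 3, where both circles began at the same base, 60831113. TASP1, the protease that cleaves KMT2A, had 2 uncatalogued circRNAs of 10 and 7 reads, the second picked with its value known, and 2 with an identifier of 3 reads each. PHRF1, a protein with PHD and RING fingers, had uncatalogued circRNAs of 9, 5 and 4 reads, and hsa_circ_0020670 had 3 reads.

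**Figure D4:**
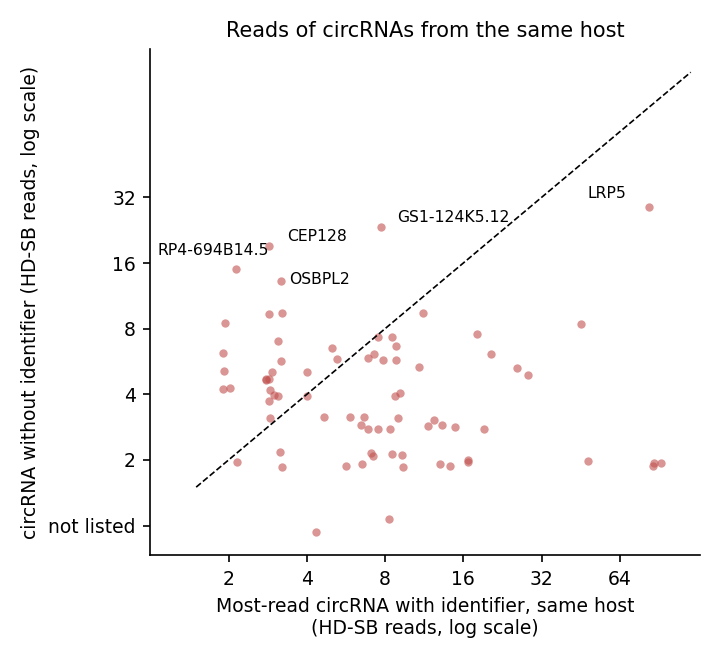
Each point is 1 of the 76 uncatalogued circRNAs whose host also has a catalogued circRNA, with its HD-SB reads (y axis, log scale) against those of the most-read catalogued circRNA of the host (x axis, log scale), moved slightly at random so that points do not hide each other. The dashed line marks equal reads, 24 points belong above it, and the 2 points marked not listed were found in the control alone.

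The reverse order held at LRP5, whose hsa_circ_0023179 (68115315 to 68115711) had 84 reads. The 3 uncatalogued LRP5 circRNAs had 29, 2 and 2 reads, 26.8% of the host's 123 reads. The circle of 29 reads shared its end, 68157520, with an uncatalogued circRNA that starts at 68115315, the start of hsa_circ_0023179. At AHRR, whose product inhibits signalling by the dioxin receptor, the uncatalogued circRNAs had 9 and 2 reads against 49 for hsa_circ_0005694. The AHRR circle of 9 reads ended at the same base as hsa_circ_0005694, and AHRR was picked with its values known.

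Counting circRNAs with 1 gene name, most hosts gave 1 uncatalogued circRNA (253 of 268), 7 gave 2, 6 gave 3 and 2 gave 4. With several-name circRNAs counted too, RP11-453F18__B.1 gave 5 and PROX1-AS1 gave 4. SLC12A7 gave 4, with 19, 10, 9 and 5 reads, and no circRNA with an identifier. Of these, 3 ended at 1065593 and started at 1057586, 1060459 and 1063959, while the circle of 19 reads started at 1065398, inside the others. HDAC4, a class IIa histone deacetylase, also gave 4. Those from 240055941, 240061380 and 240066279 all ended at 240085619, with 3, 0 and 6 HD-SB reads, and the second of them was listed in the control with 2 reads. The fourth, from 240078348 to 240098259, had 7 HD-SB reads, and hsa_circ_0003445 of the same host had 8. PROX1-AS1, an antisense transcript, gave 3 with 1 gene name, of 4, 4 and 2 reads. Of these, 2 shared the start 214068006 and 2 the end 214139627. An uncatalogued circRNA named for PROX1, picked with its value known, lay apart from them at 214169812 to 214185058 and had 5 reads. The table holds no strand, and whether PROX1-AS1 and PROX1 overlap was not tested.

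EPCAM, which encodes an epithelial adhesion protein, gave 3 circRNAs and none with an identifier. They had 9 reads (chromosome 2, 47600602 to 47601187), 8 reads (47604153 to 47607108) and 3 reads (47606092 to 47607108), and the last pair shared their end. GMDS, an enzyme of GDP-fucose synthesis, gave 3 with 9, 6 and 2 reads, and C7orf50 gave 3 with 11, 7 and 6 reads. The C7orf50 circles of 11 and 7 reads began at 1049586 and ended 5 bases apart, at 1049936 and 1049941. EPCAM, GMDS and C7orf50 lie outside the rule for named hosts and were picked with their values known.

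**Figure D5:**
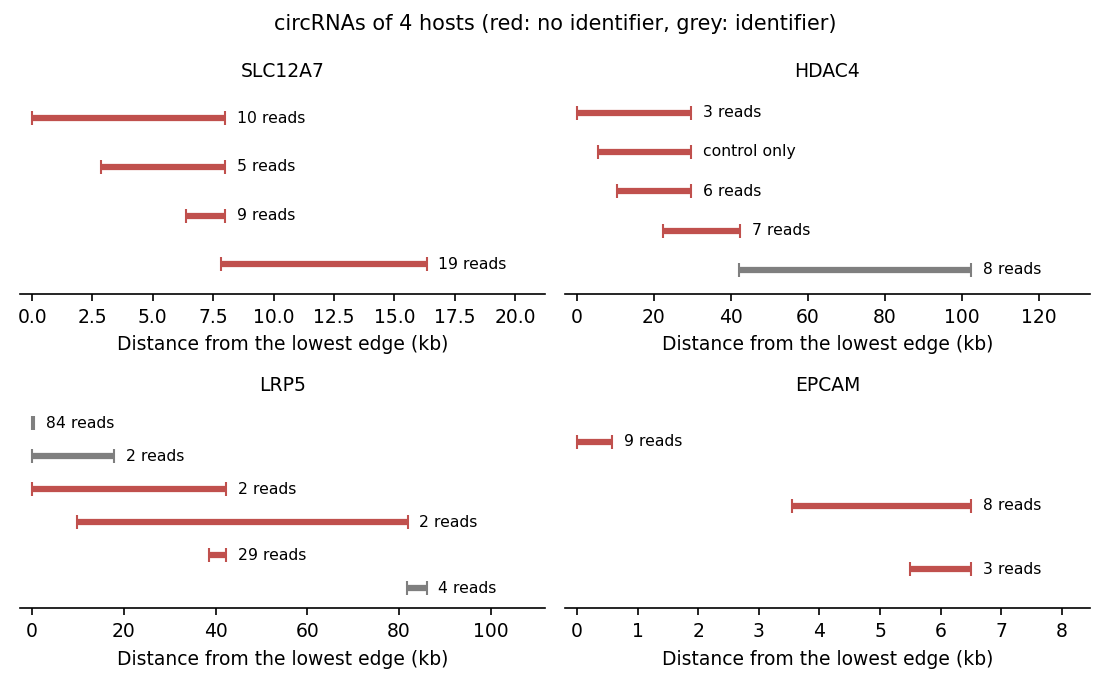
Horizontal lines are the circRNAs of SLC12A7, HDAC4, LRP5 and EPCAM, drawn to scale from edge to edge (x axis, distance in kb from the lowest edge of that host), in red without and in grey with an identifier, with HD-SB reads beside each. Of the 4 red circles of SLC12A7, 3 end at the same base, as do 3 of those of HDAC4, 1 of which was listed in the control only.

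Shared edges were counted over all hosts. Of the 362 uncatalogued circRNAs, 40 (11.0%) had a start or end that was the same base as that of a catalogued circRNA, 21 by the start, 16 by the end and 3 by both with different partners. Among catalogued circRNAs, 212 of 1123 (18.9%) shared an edge with another catalogued one. Where the host had a catalogued circRNA, 28 of 76 uncatalogued circRNAs (36.8%) shared an edge with a catalogued one. Among catalogued circRNAs of hosts with more than 1 of them, 192 of 356 (53.9%) did. A further comparison among uncatalogued circRNAs gave 36 of 362 (9.94%) that shared an edge with each other. Taking the host's strand from GENCODE 29, the edge shared with a catalogued circRNA was the 5′ one for 13 uncatalogued circRNAs with 1 gene name and the 3′ one for 13.

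By position, 307 of 362 uncatalogued circRNAs (84.8%) overlapped no catalogued circRNA, 20 lay inside one, 22 contained one and 13 overlapped one in part. Both ends were within 10 bases of a catalogued circRNA for 2, the GS1-124K5.12 circle and that of the transcription factor gene TCFL5 (chromosome 20, 61485368 to 61488987, 2 reads), which ended 3 bases before hsa_circ_0004597 (3 reads). At VTI1A, 2 uncatalogued circRNAs of 7 reads each began at 114286846 and ended 11 bases apart. The one ending at 114428757 carried the name VTI1A alone and the one ending at 114428768 carried Y_RNA, snoU13 and U3 as well.

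Lists of hosts by function were described by their counts, with no test, and some hosts stand in more than 1 list. Wnt and beta-catenin hosts had 5 uncatalogued and 9 catalogued circRNAs (35.7% uncatalogued, against 24.4% of the whole table), with 42 and 223 HD-SB reads. The 5 were the 3 of LRP5, CSNK1G2, a casein kinase (5 reads), and NKD1, an inhibitor of Wnt signalling (4 reads). Chromatin regulators had 10 uncatalogued and 47 catalogued circRNAs (17.5%), led by INO80 and HDAC4. DNA replication and repair hosts had 6 and 25 (19.4%), led by LIG1, the replicative DNA ligase (6 reads), and TOP1, a topoisomerase (5 reads). The 2 circRNAs of the mismatch repair gene MSH3 shared the start 79974746 and had 3 and 2 reads, a pair picked with its values known.

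RNA splicing, processing and binding hosts had 6 and 33 (15.4%), with PRPF6 at 25 of 41 uncatalogued reads and SON at 5. Ubiquitin ligases and proteases had 5 and 31 (13.9%), led by SMURF1 and USP4 at 4 reads each. Cell cycle and mitosis hosts had 3 and 19 (13.6%), in which CEP128 held 19 of 25 reads and CENPK 3. Adhesion and cytoskeleton hosts had 4 and 26 (13.3%), led by MYO5B and PTK2 at 4 reads each. Translation and ribosome hosts had 3 and 17 (15.0%), with 9 uncatalogued against 473 catalogued reads, led by EIF2AK2, the kinase PKR (4 reads), and GSPT1, a translation release factor (3 reads). Lipid, cholesterol and central metabolism hosts had OSBPL2 and 23 catalogued circRNAs. Widely studied circRNA hosts had 3 and 51 (5.56%), with 15 against 966 reads, the 3 being FNDC3B, CCDC66 and PTK2. This list was made of hosts already known for circRNAs, so its low uncatalogued share was partly set in advance.

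Uncatalogued circRNAs were found on every chromosome that had any circRNA. Chromosome 19 held the most, 31 of its 98 circRNAs (31.6%), followed by chromosome 16 with 27 of 113 (23.9%) and chromosome 7 with 26 of 101 (25.7%). By share, chromosome 5 had 23 of 70 (32.9%) and chromosome 4 had 7 of 48 (14.6%). Chromosome Y had 1 circRNA in all, the one with n/a.

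Between the libraries, 3 of the 362 uncatalogued circRNAs (0.829%) were listed in the control, against 2.15% of all circRNAs. The 3 held 7 of the 91 control reads, 7.69% (3.15 to 15.2), beside 16.3% (15.6 to 17.0) of HD-SB reads. These intervals leave out the listing minimum of 2 reads, at which a circRNA needed 2 of 91 reads in the control but 2 of 11570 in HD-SB. By number, 3 of 32 control circRNAs (9.38%) and 360 of 1475 HD-SB circRNAs (24.4%) were uncatalogued. Among the 251 HD-SB circRNAs with 10 or more reads, 23 (9.16%) were. That minimum is a far smaller share of its library than 2 of 91 control reads, so these sets are not matched for depth. The part of depth in the gap between libraries was not tested, and no difference is called.

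ZNF124, a zinc finger gene, gave the single uncatalogued circRNA listed in both (chromosome 1, 247319708 to 247323115). It had 3 control reads, 3.30% of the library (0.685 to 9.33), and 7 HD-SB reads, 0.0605% (0.0243 to 0.125). The control share was 54.5 times the HD-SB share (9.09 to 239), a ratio between 2 libraries and not between conditions. A circRNA entered this ratio only with at least 2 of the 91 control reads, so a high control share was required in advance. The interval leaves this selection out. When shares were taken over the circRNAs listed in both libraries, the ratio was 4.01, below that interval. It ended at 247323115 together with 3 other ZNF124 circRNAs, hsa_circ_0005667 with 7 HD-SB reads, hsa_circ_0002922 with 34 (listed as Y_RNA,ZNF124) and a second uncatalogued one with 2, picked with its value known, none of which was listed in the control. The HDAC4 circle from 240061380 had 2 control reads, 2.20% (0.267 to 7.71), and was not listed in HD-SB. MPP6, a membrane-associated guanylate kinase gene, had 2 control reads on a circle of 48609 bp (chromosome 7, 24659671 to 24708279) that was not listed in HD-SB either. This circle contains hsa_circ_0001685 (24663285 to 24690331), which had 4 HD-SB reads and no listed control read.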

How the data were processed

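The table gives 1 value per circRNA and library. Per the file headers the unit is TPM. As deposited by the authors the values behave as CPM, reads per 1000000 listed back-splice reads of the library. Within a tolerance of 0.01 of a read, 100% of listed values were whole multiples of 10989 CPM (control) or 86.4 CPM (HD-SB), taking the smallest listed value as 2 reads, a choice the table does not state. The value 0.001 was treated as not listed. No count test was run, as each group has 1 library. The submitters' processing notes name FastQC, HISAT2 2.1.0 and GRCh38 and no roles. As 80.0% of the uncatalogued circRNAs compared fell partly or wholly outside their named gene on GRCh38, printed positions cannot be taken as GRCh38 positions. How circRNAs were called and whether duplicates were removed is not given in the sources used here, and amplified copies are not independent molecules.

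Spans, edges and hosts were compared as deposited, with edges shared at the same base. Functions were tested on simulated data. Members and lists were chosen with earlier results of these data known. Named circRNAs were those listed in the control, the most-read of each name class (12 with 1 gene name, 6 with several, 6 with small-RNA names, all with n/a), the 3 shortest and 3 longest, 5 hosts with the most uncatalogued circRNAs of 1 gene name, 6 exceeding every catalogued circRNA of the host, those with both ends within 10 bases of a catalogued circRNA and 2 per host list. Any other circRNA or host named was picked with its values known. Host lengths, GC and strand came from GENCODE 29 and gene types from RefSeq, by symbol. Analyses used Python 3.11.15, pandas 2.3.3 and scipy 1.17.1. Alternatives changed the read minimum, name class and edge tolerance.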

Additional observations from a re-analysis of the deposited data

How the results depend on the processing

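Of 23 alternatives over 8 results, 14 stayed within the interval of the reported value. For shares of circRNAs and for medians, that interval took circRNAs as independent draws and served only as a yardstick. For medians it came from order statistics. The alternatives mostly reuse the same circRNAs, so staying within the interval is no test of robustness. The uncatalogued share of circRNAs, 24.4%, was 18.7% with at least 5 reads over both libraries, 19.0% with 1 entry per host name and 21.4% with 1 gene name only. Their share of HD-SB reads, 16.3%, was 13.2% with at least 5 HD-SB reads, 15.4% without the chromosome 15 locus and 13.4% with 1 gene name only. The median span of 4074 bp became 3461 bp when weighted by reads. The percentage of uncatalogued circRNAs with 1 gene name whose host had a catalogued circRNA, 25.9%, was 15.0% with at least 5 HD-SB reads on both sides, a setting that leaves fewer circRNAs to match. The ZNF124 ratio of 54.5 became 4.01 when shares were taken over circRNAs listed in both libraries, which changes the totals by construction. Restricting to the HD-SB list, an alternative chosen after seeing the data, kept 4 results within their intervals. No paired analysis was possible because HD-SB and Control have a single library apiece. With 91 reads in the control, shares there are known to several percentage points.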
